A study of Mus musculus with 141 samples.

Results

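The sterol synthesis genes under SREBP2 are a set of 8 genes, *Hmgcs1*, *Sqle*, *Idi1*, *Fdft1*, *Lss*, *Cyp51*, *Insig1* and *Mvd*, chosen by name from the 36558 genes listed in the deposited tables of counts and TPM. All 8 were found through their Ensembl identifiers, and all 8 passed the filter on low counts. SREBP2, encoded by *Srebf2*, is a transcription factor held in the endoplasmic reticulum by SCAP and the INSIG proteins while sterols are plentiful. When sterols fall it moves to the Golgi, is cut by the proteases encoded by *Mbtps1* and *Mbtps2*, and its free end enters the nucleus and raises transcription of the genes for sterol synthesis and uptake. White adipose tissue stores much of the body's free cholesterol in and around the lipid droplets of its adipocytes. A second factor, SREBP1, acts mainly on genes of fatty acid synthesis.

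RNA was sequenced from inguinal white adipose tissue (iWAT, labelled as subcutaneous adipose) of mice of many inbred strains that together form the Hybrid Mouse Diversity Panel (HMDP). There were 67 female and 74 male libraries from 82 strains, 1 library per sex and strain, and 59 strains were present in both sexes. All mice of both groups were of inbred strains and were fed chow until 8 weeks of age. A diet rich in fat and sucrose (HF/HS) followed for 8 weeks. The mice were fasted for 4 h before collection, and no chow-fed group is among these libraries. The strain names BXD24/TyJ-Cep290<rd16>/J and BTBR T<+> tf/J, each present in both sexes, carry allele symbols. Each title carries 1 mouse number, but the study's methods allow more than 1 sample per sex and strain, and whether mice were pooled is not given in the sources used here. By strain name the libraries fell into BXD (32 female, 34 male), AXB/BXA (9 and 11), CXB (3 and 3) and BXH (2 and 3) recombinant inbred strains and other inbred strains (21 and 23), and strains of 1 family share parental genomes.

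Libraries held 6269154 to 78562648 counts, and at the median of 30233245 the floor of detection, taken as 3 counts, equals 0.0992 CPM (counts scaled to a common library total). Replicates are strains. The p-values for sex and for strain rest on how the difference between the sexes varies from strain to strain. Those for strain families rest on the spread between single libraries of different strains. Summed over 4 Y-linked genes, 3 libraries lay outside the range of their sex label. These were the female libraries of BXD34/TyJ and BXD69/RwwJ and the male library of NZW/LacJ. In BXD69/RwwJ the sum was 371.5 CPM, within the 163.9 to 581.2 CPM of the other males, and mammary epithelial markers summed to 0.907 CPM. In NZW/LacJ it was 9.36 CPM, within the 5.66 to 35.7 CPM of the other females, with 475.5 CPM of these markers. By these measures both libraries resembled the other sex, and whether their labels are wrong was not tested. In BXD34/TyJ the sum rested on *Uty* and *Kdm5d*, with *Ddx3y* at 2.28 CPM. This library was also the shallowest, gave 29.9% of its counts to mitochondrially encoded genes against a median of 8.51%, and had a highest correlation of 0.752 to any other library. The female library of AXB12/PgnJ, with 0.900, came next, and all others had 0.931 or more. Only NZW/LacJ of the 3 belonged to a matched strain. The adipocyte markers *Adipoq*, *Plin1*, *Plin4*, *Cidec* and *Fabp4* were present in every library.

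All members but *Insig1* encode enzymes. *Hmgcs1* encodes the cytosolic HMG-CoA synthase at the entry of the pathway. *Mvd* and *Idi1* encode mevalonate diphosphate decarboxylase and isopentenyl diphosphate isomerase, which form and interconvert the isoprene units. *Fdft1* encodes squalene synthase, the first enzyme committed to sterols, *Sqle* squalene epoxidase and *Lss* lanosterol synthase, which close the ring system. *Cyp51* encodes the lanosterol demethylase. *Insig1* makes no sterol and encodes 1 of the retention proteins of SCAP, so it is both a target and an inhibitor of SREBP2.

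Promoters are shown here for *Hmgcs1*, the most abundant member, for *Lss*, which with *Idi1* formed the closest pair in females, and for *Mvd*, the least abundant. Whether promoter letters bear on how the members vary together was not tested. The 250 bases before the gene start are given 5′ to 3′ on the strand of the gene, from the RefSeq promoter table of GRCm38.p6, at chr13:119690101-119690350 (plus strand) for *Hmgcs1*, chr10:76531355-76531604 (plus strand) for *Lss* and chr8:122443423-122443672 (minus strand) for *Mvd*. Capitals mark matches, on either strand, to TCACNCCA, a core of the sterol regulatory element, and to CCAAT, the box of NF-Y, which reads ATTGG on the other strand. The start is that of RefSeq, which lies before the annotated gene start given with the levels for *Hmgcs1* and after it for *Lss*.
Hmgcs1: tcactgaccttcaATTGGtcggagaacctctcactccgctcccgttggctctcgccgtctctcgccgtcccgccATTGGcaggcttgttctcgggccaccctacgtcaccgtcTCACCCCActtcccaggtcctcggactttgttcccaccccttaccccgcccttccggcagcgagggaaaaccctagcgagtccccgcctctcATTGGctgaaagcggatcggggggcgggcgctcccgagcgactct
Lss: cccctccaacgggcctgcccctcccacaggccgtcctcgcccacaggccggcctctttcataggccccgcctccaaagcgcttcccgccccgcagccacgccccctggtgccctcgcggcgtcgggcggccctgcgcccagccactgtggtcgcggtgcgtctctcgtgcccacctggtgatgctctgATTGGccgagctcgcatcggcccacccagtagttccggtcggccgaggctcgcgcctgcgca
Mvd: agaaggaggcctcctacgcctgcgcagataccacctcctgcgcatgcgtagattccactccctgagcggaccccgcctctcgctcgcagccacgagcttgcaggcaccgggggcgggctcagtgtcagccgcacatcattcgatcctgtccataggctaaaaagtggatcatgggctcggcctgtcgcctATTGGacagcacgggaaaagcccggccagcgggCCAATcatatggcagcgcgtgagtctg

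The table held promoters of 6 of the 8 members. TCACNCCA matched 1 of the 6, *Hmgcs1*, as TCACCCCA, and 3.67% of all 32851 promoters of the same length. CCAAT matched 6 of 6, against 33.85% of all promoters, with 3 matches in *Hmgcs1*, 2 in *Mvd* and 2 in *Idi1*. GGGCGG, the GC box of Sp1, also matched 6 of 6, against 32.74% of all promoters. No motif overlapped another by its letters in the 3 promoters printed. A match describes the letters and is not a measured binding site.

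The members differed in level by nearly 2 orders of magnitude on the TPM scale, which corrects for transcript length. *Hmgcs1* (ENSMUSG00000093930, chr13:119690379-119708260, GRCm38) had the highest level, with a median of 251 TPM over all libraries, and *Insig1* (ENSMUSG00000045294, chr5:28071363-28078662) followed with 120.1 TPM. *Hmgcs1* was below *Insig1* in 13 libraries only. *Idi1* (ENSMUSG00000058258, chr13:8885501-8892451) stood at 28.7 TPM and *Fdft1* (ENSMUSG00000021273, chr14:63145150-63179578) at 21.7 TPM, with *Idi1* the lower in 24 libraries. *Cyp51* (ENSMUSG00000001467, chr5:4081145-4104746), *Sqle* (ENSMUSG00000022351, chr15:59315077-59331192) and *Lss* (ENSMUSG00000033105, chr10:76531588-76557138) lay close together at 10.7, 9.54 and 9.33 TPM. *Cyp51* exceeded *Sqle* in 85 libraries and was below it in 56, and *Sqle* exceeded *Lss* in 75 and was below it in 66, so these neighbours were not separated by their spread. *Mvd* (ENSMUSG00000006517, chr8:122433601-122443422) was lowest at 3.80 TPM and exceeded *Lss* in 1 library. Reads are assigned by probability, and 18.8% of the 31-base words of *Idi1* and 14.3% of those of *Fdft1* occur in other genes, against 3.46% or less for the other 6, so the values of these 2 genes are less certain.

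**Figure D1:**
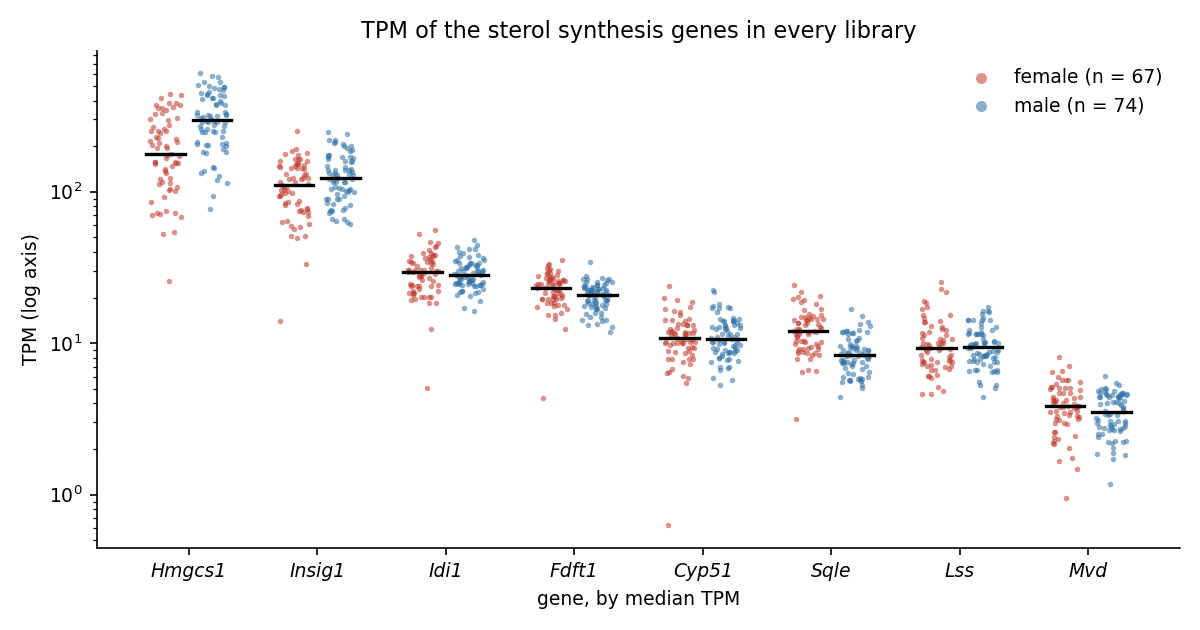
TPM on a log axis for each sterol synthesis gene (x axis, ordered by median), with 1 point per female (red, n = 67) or male (blue, n = 74) library and a black bar at the median of each sex. The female points of *Hmgcs1* sit lower than the male points and those of *Sqle* higher, while the other genes overlap almost fully; the lone low female point of *Cyp51* at 0.628 TPM is BXD34/TyJ.

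*Hmgcs1* ranged in females from 25.8 TPM (BXD34/TyJ) over a median of 176 to 438 TPM (129X1/SvJ). In males it ranged from 76.5 TPM (NZW/LacJ) over 297 to 604 TPM (129X1/SvJ). The 2 ranges overlapped widely, with the male values shifted upwards, and the highest library of each sex came from the same strain. *Insig1* spanned 13.9, 110.1 and 251 TPM (lowest, median, highest) in females and 60.9, 122.99 and 247 TPM in males. *Sqle* spanned 3.15, 11.9 and 24.2 TPM in females and 4.43, 8.33 and 16.8 TPM in males, so here the female values were the higher ones. KK/HlJ held the highest *Sqle* value, in its female library. In females the medians of *Idi1*, *Fdft1*, *Cyp51*, *Lss* and *Mvd* were 29.6, 23.3, 10.8, 9.33 and 3.85 TPM. In males they were 28.3, 20.8, 10.7, 9.41 and 3.49 TPM. These 5 genes overlapped almost completely between the sexes. By TPM the library of BXD34/TyJ gave the lowest value of 7 members, all but *Lss*. By CPM the lowest female value of every member but *Cyp51* came from a matched strain, which BXD34/TyJ is not. Its TMM factor was 0.588, so its low place depended on the scale. Without the 3 libraries outside their sex label, the *Hmgcs1* medians were 176 and 302 TPM in females and males.

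Whether the members differ between the sexes was asked within the 59 matched strains, with Strain and Sex as terms of edgeR's quasi-likelihood model and p-values adjusted (Benjamini-Hochberg) over 16765 genes. *Hmgcs1* and *Insig1* were lower in females than in males, *Sqle* was higher, and the other 5 members did not pass the test. Over all genes 58.5% passed, 30% being lower and 28.5% higher in females, and the members' 3 of 8 lies below that share.

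*Hmgcs1* averaged 391 ± 201 CPM over the females and 648 ± 273 CPM over the males of the matched strains (SD, n = 59 each). Its log2FC (female vs. male) was -0.80 ± 0.10 (SE; edgeR adjusted p = 1.79e-09), a 1.74-fold lower level, and it was lower in the female of 53 of 59 strains. The within-strain difference of log2 CPM ran from -2.87 in AXB12/PgnJ (54.4 TPM in the female, 318 TPM in the male) to 1.04 in NZW/LacJ (176 and 76.5 TPM). The other 5 strains with a higher female value were BXD40/TyJ, AXB19b/PgnJ, BXD85/RwwJ, BXD84/RwwJ and I/LnJ, with differences from 0.09 to 0.80. In C57BL/6J, named like SJL/J after its values were seen, the female library held 75.1 TPM and the male library 382 TPM. In SJL/J, by contrast, both sexes were low, at 92.7 and 94.4 TPM. Without NZW/LacJ, the matched strain whose male library lay outside its sex label, the log2FC was -0.83 for *Hmgcs1*, 0.45 for *Sqle* and -0.33 for *Insig1*, all still past the threshold of edgeR's test.

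*Insig1* averaged 206 ± 101.97 CPM over females and 256 ± 118.17 CPM over males (SD, n = 59). Its log2FC was -0.32 ± 0.11 (SE; edgeR adjusted p = 0.00677). It was lower in the female of 39 strains and higher in 20. The difference was widest in AXB12/PgnJ (33.4 TPM in the female, 218 TPM in the male) and opposite in C57BLKS/J (178 and 72.5 TPM). *Sqle* averaged 24.7 ± 7.74 CPM over females and 18.1 ± 4.74 CPM over males (SD, n = 59). Its log2FC was 0.44 ± 0.07 (SE; edgeR adjusted p = 2.45e-07). It was higher in the female of 45 strains, most of all in A/J, with 14.3 TPM against 5.05 TPM. It was lower in the female of 14 strains, with the widest gap of this kind in AXB12/PgnJ.

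The 5 members that did not pass had log2FC values between -0.07 (*Idi1*, SE 0.07) and 0.09 (*Mvd*, SE 0.07; *Fdft1*, SE 0.06), with edgeR adjusted p from 0.193 to 0.725. *Lss* had -0.05 ± 0.09 and *Cyp51* -0.03 ± 0.07 (SE). The spread of the within-strain differences was nevertheless wide, with an SD from 0.44 (*Fdft1*) to 0.67 (*Lss*) on the log2 scale. Both directions occurred in each of the 5, the female being lower in 36 strains for *Lss* and in 24 for *Fdft1*. Among the members that encode enzymes, only the synthase at the entry of the pathway, lower in females, and squalene epoxidase, higher in females, passed. Calls in either direction were common, with 30% of all genes lower and 28.5% higher in females.

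**Figure D2:**
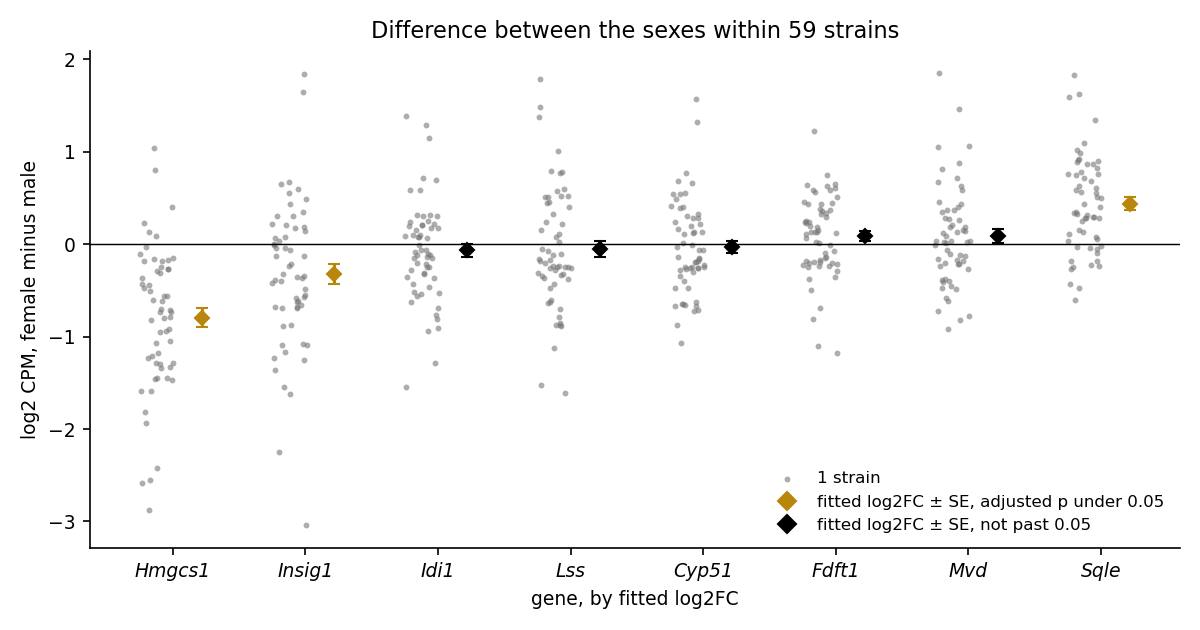
Female minus male log2 CPM (y axis) of each sterol synthesis gene in 59 strains (grey points, 1 per strain), with the fitted log2FC ± SE beside them as a diamond, gold where the edgeR adjusted p is under 0.05 and black otherwise. *Hmgcs1* (-0.80) and *Insig1* (-0.32) lie below 0 and *Sqle* (0.44) above, and single strains cross 0 for every gene.

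Markers of other cells moved with sex. All 5 adipocyte markers were lower in females, where their summed level ran from 3306 to 34563 CPM, against 7511 to 42300.0 CPM in males. All 9 mammary epithelial markers were higher in females, with sums from 80.4 to 2176 CPM against 0.285 to 476 CPM in males, and the highest male value was that of NZW/LacJ. All 6 macrophage markers were lower in females (sums from 240.0 to 4480.3 CPM against 229.9 to 2420.4 CPM), while none of the 6 lymphocyte markers passed the test (5.87 to 1018 CPM against 4.49 to 761 CPM). No marker was at 0 in all libraries of a sex, and the part of the macrophage markers in the differences of the members was not tested. With the adipocyte marker score as a further term, *Hmgcs1* stayed lower in females at a log2FC of -0.26 (edgeR adjusted p = 0.00146), *Insig1* was at 0.08 (adjusted p = 0.576) and *Sqle* at 0.59 (adjusted p = 4.49e-08). In the same fit *Fdft1* (0.30, adjusted p = 3.02e-05), *Lss* (0.24, adjusted p = 0.0328) and *Idi1* (0.19, adjusted p = 0.0302) were also higher in females by edgeR, the last of these and *Lss* against the sign of the fit without the score. In bulk tissue, fewer cells of a type and less RNA per cell cannot be told apart. With the mammary score as a term only 20 of 16765 genes passed in all, none of them a member, and that score and sex cannot be told apart. With the fatty acid synthesis score as a term, 5 members were lower in females, *Idi1*, *Lss* and *Cyp51* joining *Hmgcs1* and *Insig1*. In that fit 5529 of 16765 genes were lower in females.

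The other genes of the pathway give the setting. Among 13 other enzymes of sterol synthesis, 4 were lower in females, 2 were higher and 7 did not pass, with a median log2FC of -0.15, against -0.04 for the members and 0.01 for all genes tested. The lower ones were *Sc5d* (-0.38 ± 0.09), *Mvk*, which encodes mevalonate kinase (-0.37 ± 0.08), *Msmo1* (-0.26 ± 0.05) and *Hsd17b7* (-0.18 ± 0.07), each log2FC ± SE. *Tm7sf2* (0.32 ± 0.05) was among the higher ones.

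In the list of SREBP2 control and sterol uptake, 12 of 13 genes passed the filter on low counts and were tested. Of these, 4 were lower in females, 2 were higher and 6 did not pass. *Srebf2* was higher (log2FC 0.19 ± 0.05 SE, edgeR adjusted p = 0.00165, in 42 of 59 strains), as was *Scap* (0.08 ± 0.02). *Insig2*, the other retention protein, was lower (-0.34 ± 0.06), as were *Npc2* (-0.37 ± 0.06) and *Npc1* (-0.14 ± 0.04), which carry cholesterol out of lysosomes, and *Ggps1* (-0.09 ± 0.02). With the adipocyte score as a term *Srebf2* was at -0.063 and *Insig1* at 0.077. Transcript level does not show how much of the SREBP2 protein is cut.

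Of 10 sterol efflux, esterification and oxysterol genes, 5 were lower in females and 1 was higher. The lower genes were the exporters *Abcg1* (-0.48 ± 0.09) and *Abca1* (-0.27 ± 0.05), *Nr1h3*, which encodes the sterol sensor LXRα (-0.37 ± 0.06), *Apoe* (-0.46 ± 0.07) and *Cyp27a1* (-0.26 ± 0.06). *Cyp7b1* was higher (0.31 ± 0.12), at a low level of 1.53 ± 0.402 CPM in the females against 1.501 ± 1.89 CPM in the males (SD). Of 14 genes of fatty acid synthesis under SREBP1, 7 were higher in females, 3 were lower and 4 did not pass, with a median log2FC of 0.41. *Elovl6* (1.72 ± 0.24), *Fads2* (1.17 ± 0.10) and *Acly* (0.88 ± 0.21) were the furthest up, and *Fasn*, the fatty acid synthase, had 0.55 ± 0.21 (SE; edgeR adjusted p = 0.0200). *Pnpla3* (-0.41 ± 0.14), *Srebf1* (-0.34 ± 0.08) and *Elovl5* (-0.11 ± 0.03) were lower. With the mammary score as a term *Acly* was at -0.49, *Elovl6* at -0.41 and *Fasn* at -0.62, none past the threshold.

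**Figure D3:**
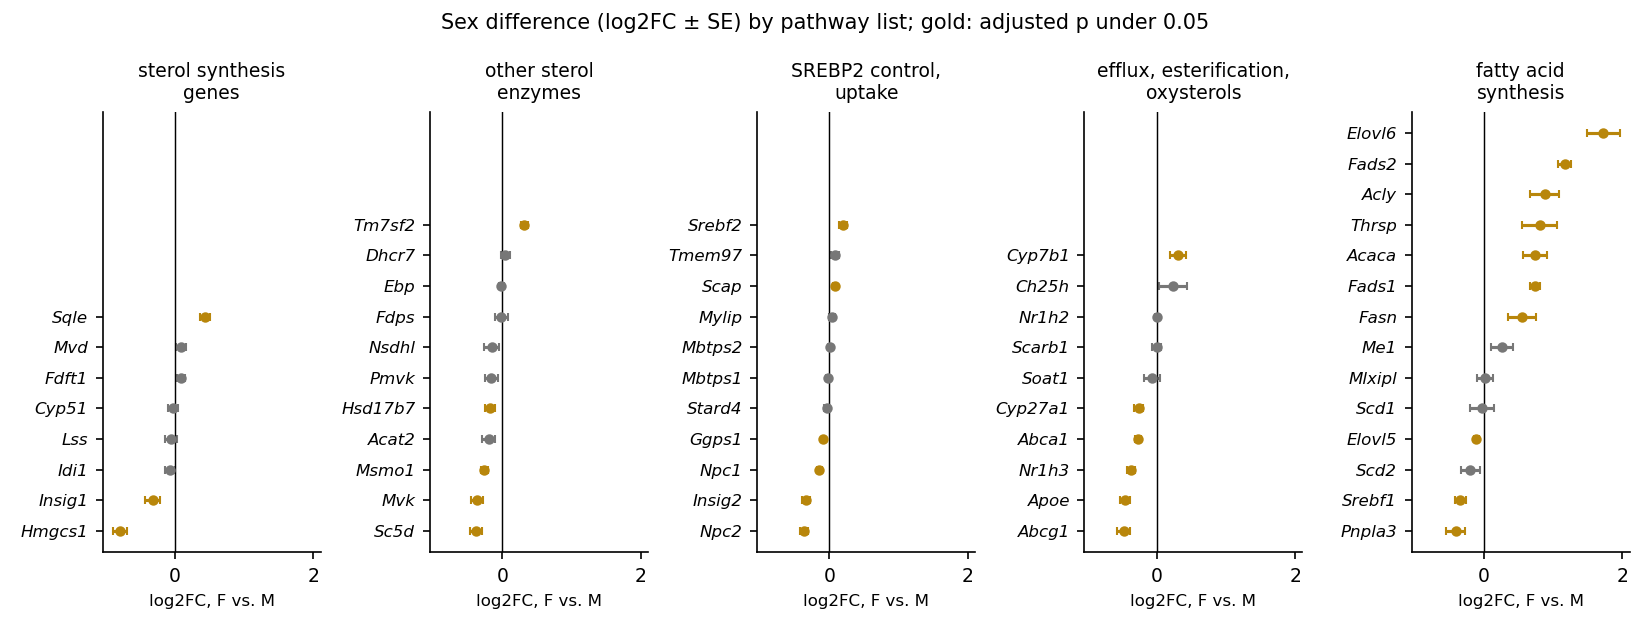
Fitted log2FC, female vs. male, with its SE (x axis) for the tested and reported genes (y axis) of the sterol synthesis set and 4 other lists, gold where the edgeR adjusted p is under 0.05 and grey otherwise. Sterol genes stay between -0.80 and 0.44, while *Elovl6* of fatty acid synthesis reaches 1.72.

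The same fit was used to ask whether strains differ by more than the 2 sexes of a strain do once the mean sex difference is taken out. Strain differences passed for 6 of 8 members in edgeR's F test of the strain terms, against 75.8% of all genes tested. The adjusted p was 0.000841 for *Hmgcs1*, 0.00122 for *Cyp51*, 0.00263 for *Fdft1*, 0.0126 for *Mvd*, 0.0158 for *Insig1* and 0.0192 for *Idi1* (edgeR, Benjamini-Hochberg). *Sqle* (adjusted p = 0.0725) and *Lss* (adjusted p = 0.122) did not pass. These calls depended on the processing. *Sqle* passed in 4 of 8 alternatives, with adjusted p from 0.0127 to 0.0493 (library totals, log2(TPM + 1) and the adipocyte and lymphocyte scores). *Insig1* did not pass in 3, with limma-voom, log2(TPM + 1) or without CXB11/HiAJ (adjusted p from 0.0608 to 0.106), and *Idi1* not in 2, with log2(TPM + 1) or without CXB11/HiAJ (0.0502 and 0.0926). Without CXB11/HiAJ, whose male library was the deepest, 4 members passed.

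Both libraries of each matched strain were then set against each other over the 59 strains, on log2 CPM, in 8 relations with two-sided permutation tests of 100000 resamples and raw p-values. *Hmgcs1* had the highest Pearson r, 0.47 (permutation p = 0.00025), with a Spearman rho of 0.55 (permutation p = 3e-05), and r was 0.48 without the 2 strains farthest from the median of the female values. *Fdft1* followed with r = 0.38 (p = 0.00326) and rho = 0.40 (p = 0.00214), and *Cyp51* with r = 0.37 (p = 0.00354) and rho = 0.37 (p = 0.00404), all by permutation. *Mvd* had r = 0.29 and rho = 0.26 (permutation p = 0.0255 and 0.0468), and *Idi1* r = 0.26 and rho = 0.25 (permutation p = 0.0473 and 0.0565). *Insig1* (r = 0.24, rho = 0.25), *Sqle* (r = 0.17, rho = 0.18) and *Lss* (r = 0.10, rho = 0.14) had permutation p-values from 0.0594 to 0.471. Over 7 alternatives the permutation p of r fell under 0.05 in 4 for *Insig1* (0.00837 to 0.0384) and in 2 for *Sqle* (0.0121 and 0.0269), and rose above it in 3 for *Idi1* (0.0962 to 0.153) and in 1 for *Mvd* (0.091). Without the 2 farthest strains r was 0.40, 0.37, 0.36, 0.32, 0.23, 0.20 and 0.14 for *Fdft1*, *Cyp51*, *Mvd*, *Idi1*, *Insig1*, *Sqle* and *Lss*. Over 16756 genes the median r between the sexes was 0.30, with 90% of genes between 0.04 and 0.67. The r of *Hmgcs1* was above that of 81.7% of genes and that of *Lss* above 9.60%. Without CXB11/HiAJ only 3 members, instead of 5, had a permutation p under 0.05.

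**Figure D4:**
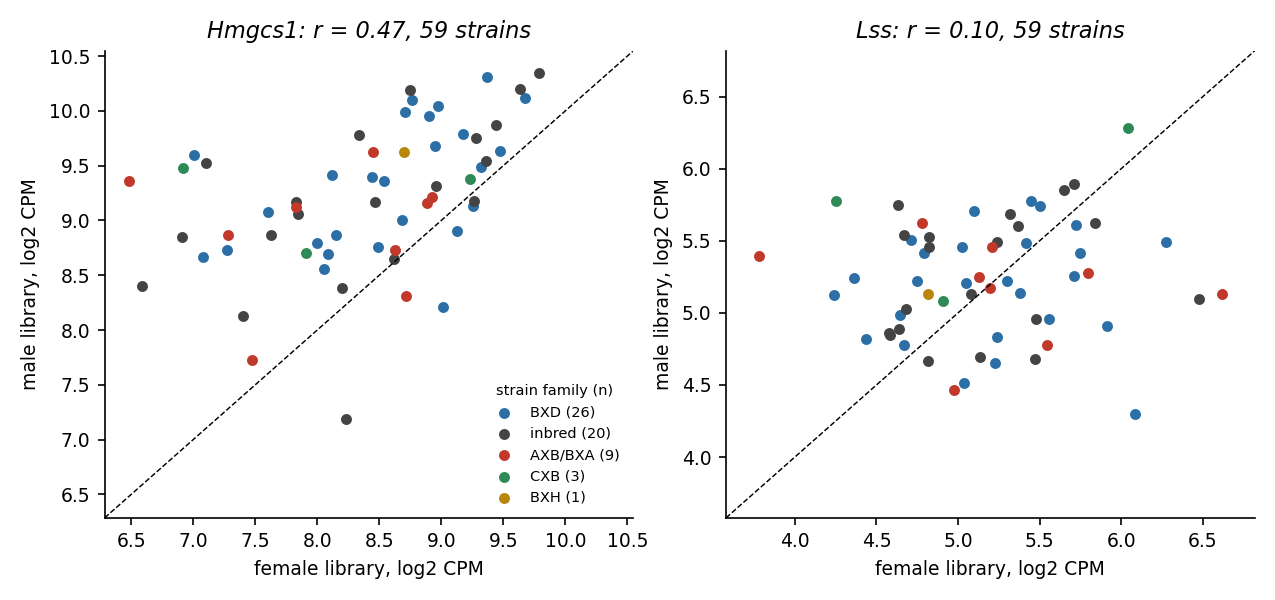
Log2 CPM of the male library (y axis) against the female library (x axis) of 59 strains for *Hmgcs1* (left) and *Lss* (right), coloured by strain family, with the line of equal level dashed. Most *Hmgcs1* points lie above the line and rise along it (r = 0.47), while *Lss* points scatter around it (r = 0.10).

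No member passed the test between strain families. In edgeR's F test over BXD, AXB/BXA and other inbred strains, 0 of 8 members passed in females, where 10.9% of 18281 genes did, and 0 of 8 in males, where 9.27% of 17631 genes did. At an unadjusted p under 0.05 edgeR and limma-voom also counted 0 members in each sex, and limma on log2(TPM + 1) counted 1, *Mvd* in females. Over all genes the same limit was met in females by 4782 of 18281 with edgeR, 3790 with limma-voom and 2880 with limma on log2(TPM + 1). In males it was met by 4192 of 17631, 3513 and 2573, so few members would be counted at these shares. The lowest adjusted p of edgeR was 0.249 in females and 0.294 in males. *Hmgcs1* had medians of 176, 184 and 155 TPM in inbred, BXD and AXB/BXA females and of 320.0, 319 and 252 TPM in males. Its fitted log2FC between AXB/BXA and inbred strains was -0.40 in females and -0.36 in males, and that between BXD and inbred strains 0.08 and 0.11. The few CXB and BXH strains were not tested, and their *Hmgcs1* medians were 115 TPM in 3 CXB females, 184 TPM in 3 CXB males, 315 TPM in 2 BXH females and 259 TPM in 3 BXH males. Relatedness between the strains of a family was not modelled.

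The sex difference was also set side by side between families. Mean within-strain differences of *Hmgcs1* were -0.80 ± 0.81 in 20 inbred, -0.77 ± 0.68 in 26 BXD and -0.83 ± 1.004 in 9 AXB/BXA strains (log2 CPM, SD), and those of *Sqle* were 0.48 ± 0.54, 0.45 ± 0.49 and 0.41 ± 0.70. For *Insig1* the means were -0.14 ± 0.74, -0.31 ± 0.67 and -0.64 ± 1.17. The sex by family terms passed for 0 of 8 members and for 0.0% of 16778 genes in edgeR, with 0 members and 810 genes at an unadjusted p under 0.05, and limma-voom also passed 0 members and 0 genes.

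Across the libraries of 1 sex, most members rose and fell together. Over the 28 pairs the median Pearson r of log2 CPM was 0.57 in females (n = 67 libraries) and 0.53 in males (n = 74), against -0.002 and -0.004 over all 140373390 pairs of genes, of which 95% lay below 0.595 and 0.554. *Idi1* and *Lss* were the closest pair in females, with r = 0.89 and rho = 0.87, and reached r = 0.72 and rho = 0.72 in males. Above 0 were all 28 pairs in females and 24 in males, against 69798331 and 69291440 of all pairs of genes. The male pairs below 0 all held *Fdft1*. Pairs without *Fdft1* ran from 0.27 to 0.89 in females and from 0.33 to 0.73 in males.

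*Fdft1* followed the other members less closely. Its 7 pairs had a median r of 0.32 in females and of -0.02 in males, where 4 of the 7 were below 0. With *Hmgcs1* it had r = 0.24 in females and -0.23 in males, and with *Idi1* 0.59 and 0.26. Without the libraries outside their sex label the median r of the 28 pairs was 0.58 in females and 0.53 in males, and the *Fdft1* pairs had medians of 0.35 and -0.02. These are descriptions, since the points of a pair share their library, its depth and its mix of cells.

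**Figure D5:**
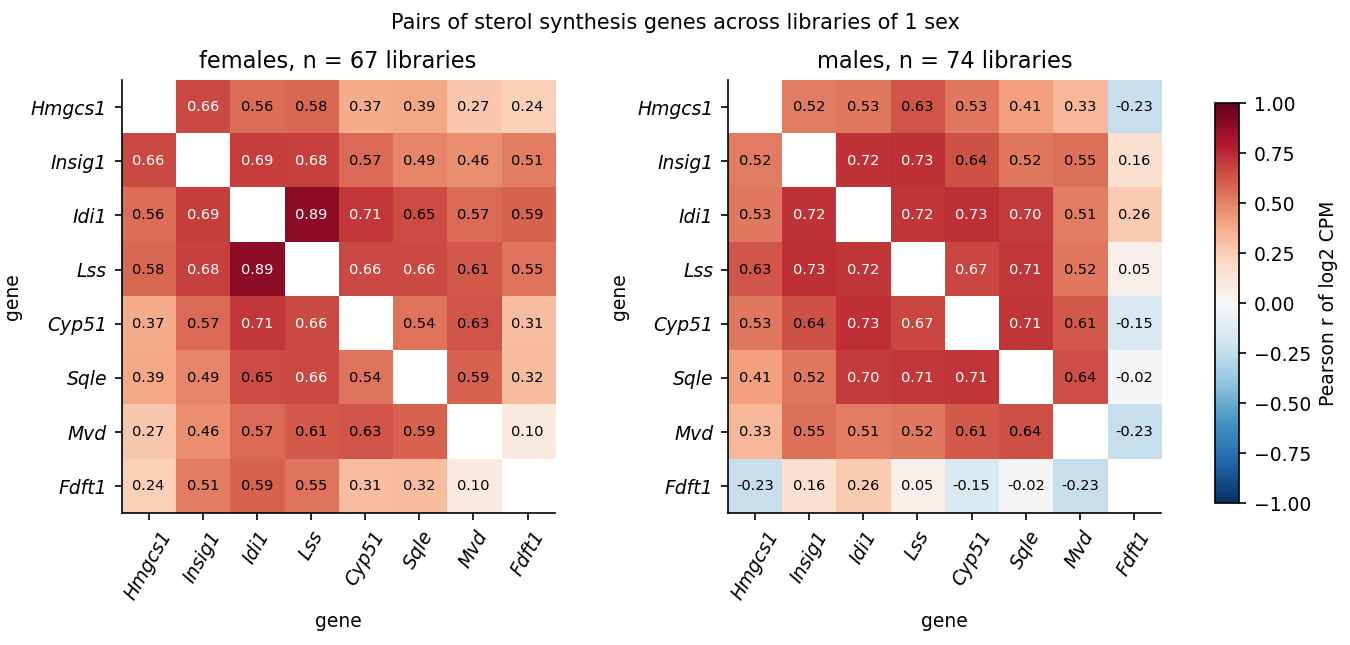
Pearson r of log2 CPM for each pair of sterol synthesis genes (both axes) across 67 female libraries (left) and 74 male libraries (right), from blue (-1) to red (1). *Idi1* and *Lss* in females are the darkest cell (0.89), and the *Fdft1* row is pale, with 4 values below 0 in males.

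Marker and technical measures moved with the members too, over the 65 female and 73 male libraries in the range of their label. Against the lymphocyte marker score, r ran from -0.70 (*Hmgcs1*) to -0.18 (*Mvd*) in females and from -0.59 to -0.01 in males. Against the adipocyte marker score it ran from 0.02 (*Mvd*) to 0.71 (*Hmgcs1*) in females and from 0.06 to 0.55 in males. The fatty acid synthesis score gave 0.12 (*Hmgcs1*) to 0.76 (*Lss*) in females and 0.05 to 0.57 in males, and the total count 0.04 to 0.29 and 0.00 to 0.38. The share of mitochondrially encoded counts gave 0.04 (*Mvd*) to 0.55 (*Fdft1*) in females and -0.13 (*Hmgcs1*) to 0.47 (*Fdft1*) in males. Against the macrophage score *Fdft1* had the lowest r of the 8, with -0.50 in females and -0.48 in males, where *Hmgcs1*, *Cyp51* and *Lss* had 0.36, 0.34 and 0.33. Against the mammary score *Fdft1* had 0.48 in males and the other 7 members -0.35 to -0.07, while in females *Sqle* had 0.41 and the others -0.18 to 0.004. The part of these measures in the pairs was tested only for the adipocyte and lymphocyte scores. With the adipocyte score taken out, the median r of the 28 pairs was 0.52 in females and 0.56 in males, and with the lymphocyte score taken out it was 0.47 and 0.52.

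The genes most like the members were named by their mean r to the 8 members over all libraries, with log2 CPM centred within each sex. *Fdps* (mean r 0.68), which encodes farnesyl diphosphate synthase, and *Nsdhl* (0.64), a sterol dehydrogenase, led 16748 genes, of which 95% were below 0.43. *Ppp2r5b* and an unnamed gene with an identical row of values, ENSMUSG00000107330, came next at 0.64, followed by *Kmt5a* (0.62), *Lactb2* (0.61), the desaturase gene *Scd2* (0.61), *Psmd12* (0.61), *Pmvk* (0.60), which encodes phosphomevalonate kinase, and *Pgd* (0.60). Of these 10, 3 are enzymes of sterol synthesis. Without the libraries outside their sex label *Fdps* and *Nsdhl* still led, and *Pgd* fell to rank 15. *Srebf2* had a mean r below 0 (-0.30, rank 14130), though above the 5th percentile of the 16748 genes, -0.40. Among the members the mean r to the other 7 was highest for *Idi1* (0.63) and *Lss* (0.62) and lowest for *Fdft1* (0.19).

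By the mean log2 CPM over the 8 members, the female libraries ran from 4.42 to 6.49 with a median of 5.48, and the male libraries from 4.97 to 6.51 with a median of 5.55. The lowest females were AXB12/PgnJ (4.42), CXB6/ByJ (4.74) and BXD48/RwwJ (4.78), and the highest AXB5/PgnJ (6.49), CXB11/HiAJ (6.40) and BXD12/TyJ (6.23). The lowest males were BXD74/RwwJ (4.97), NZW/LacJ (4.98) and AXB19a/PgnJ (4.99), and the highest CXB11/HiAJ (6.51), NZB/BlNJ (6.23) and BXD75/RwwJ (6.07). CXB11/HiAJ was thus at the upper end in both sexes, and no other strain stood at the same end in both.

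These ends moved with other measures. The female of AXB12/PgnJ had the lowest adipocyte sum of the matched females (3306 CPM) together with the highest macrophage (4480.3 CPM) and lymphocyte (1018 CPM) sums. Its male library had 28124 CPM of adipocyte and 9.59 CPM of lymphocyte markers, and ranked 49 of 74 from the lowest on the members' mean. Yet *Mvd* in that female, at 6.01 TPM, was the highest of the 9 AXB/BXA females, and *Cyp51*, at 9.71 TPM, was close to the female median of 10.8 TPM. CXB11/HiAJ gave 25.1% of the male library's counts to mitochondrially encoded genes and had a TMM factor of 0.677, so its place depended on the scale, and by mean log2(TPM + 1) it ranked 15 of 74 from the lowest. AXB5/PgnJ kept a high place by TPM, at 63 of 67, with 55.6 TPM of *Idi1* and 24.0 TPM of *Cyp51*, the panel's highest values of both. Its male library held 24.4 and 9.001 TPM of the same genes. The sex difference without AXB12/PgnJ was -0.76 for *Hmgcs1*, -0.29 for *Insig1* and 0.45 for *Sqle* (log2FC; edgeR adjusted p = 1.67e-09, 0.00950 and 6.71e-08).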

How the data were processed

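Reads of stranded, paired-end iWAT libraries were quantified by the authors with kallisto (version 0.46.1 in the submitters' processing notes) against the Ensembl release 97 transcriptome of GRCm38/mm10 and collapsed to genes through tximport. The deposited estimated counts carry no normalization across libraries, and 30.3% are fractional. The TPM values, also deposited by the authors, correct for transcript length and sum to the same total in each library, so they carry no depth. Of 36558 genes, 35935 were named through GENCODE M21.

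Estimated counts were rounded, filtered with filterByExpr by sex and scaled by TMM. Sex was tested as ~ Strain + Sex with edgeR 4.0.16 (quasi-likelihood, R 4.3.3), strains by an F test in the same fit, and families (BXD, AXB/BXA, other inbred) by an F test within each sex. All adjusted p-values are Benjamini-Hochberg values across every gene tested, with a threshold of 0.05. The SE follows from the log2FC and the F statistic. The study modelled sex with limma; edgeR was used because the files hold counts. Log2 CPM has a prior count of 2, and a marker score is the mean log2 CPM of a list. Scripts were tested on simulated counts. Python 3.11.15, numpy 2.4.6, scipy 1.17.1 and matplotlib 3.10.9 were used for correlations and plots.

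The members and lists were chosen with earlier results of these data known. Named genes are the members, every gene of another pathway list called for sex (if more than 6, the 3 largest and 3 smallest log2FC), *Srebf2*, *Fasn* and other genes fixed by name, the 10 genes most alike and the strains with the 3 highest and 3 lowest means per sex. Alternatives were DESeq2 1.42.0, limma-voom (limma 3.58.1), RLE factors, library totals, no mitochondrially encoded genes, no filter, at least 10 counts in every library, log2(TPM + 1), log2(TPM + 0.1), no strain term, all libraries, marker score covariates and omitted libraries. Some genes of the lists count in the totals but are not reported here by name. Other samples of the study were not used here. The floor of 3 counts covers counting error only, while SDs and SEs include the spread between libraries.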

Additional observations from a re-analysis of the deposited data

Results flagged for a closer look

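*Cyp51* in the female library of AXB5/PgnJ, at 24.0 TPM, lay apart from the other 8 AXB/BXA females, of which the next highest held 14.5 TPM and the lowest 6.11 TPM. Its gap to the next value was 0.529 of the group's range, above Dixon's critical value of 0.493 for 9 samples. The other 7 members showed no such gap in this group. Chance alone gives about 1 in 20 sets of values a gap of this size. The 8 genes looked at share the same 9 libraries, so their values are not independent.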

How the results depend on the processing

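Of 81 recalculated counts and medians that answer a comparison, 70 kept their size, and the rest are given here. Members higher in females numbered 3 with library totals, 3 with log2(TPM + 1) and 2 with log2(TPM + 0.1), where *Fdft1* and *Mvd* or *Fdft1* joined *Sqle*, against 1 in the reported fit. Of all 16765 genes, 7468, 5354 and 5379 were higher in these settings, in that order, against 4774 in the reported fit. Library totals moved the median log2FC of all genes to 0.12 and the share of calls that were lower in females from 51.3% to 27.5%, and log2(TPM + 1) moved that share to 34.96%. With the adipocyte score as a covariate 1 member was lower and 4 were higher, with the mammary epithelial score 0 and 0, with the fatty acid synthesis score 5 were lower, and with the lymphocyte score, a covariate chosen after seeing the data, 2 were higher. Of all 16765 genes, 4242 were lower and 4179 higher with the adipocyte score, and 11 and 9 with the mammary score. With the fatty acid synthesis score 5529 genes were lower, and with the lymphocyte score 4798 were higher. Between strain families in males 1 member, *Hmgcs1*, passed with the adipocyte score. The members with a permutation p under 0.05 between the sexes of a strain numbered 3 without CXB11/HiAJ, against 5 in the reported fit, and this omission, like that of AXB12/PgnJ, was chosen after seeing the data. Libraries were paired by strain name, and with no replicate block 2 members were lower and 1 was higher, as with the block.

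Among values past the threshold in the reported fit or in the alternative, directions turned in these cases, given as log2FC (female vs. male). With the adipocyte score they were *Idi1* 0.19, *Lss* 0.24, *Insig1* 0.077, *Sc5d* 0.042, *Mvk* 0.058, *Hsd17b7* 0.040, *Srebf2* -0.063, *Cyp27a1* 0.0064, *Pnpla3* 0.065, *Elovl5* 0.044. With the mammary score they were *Sqle* -0.015, *Sc5d* 0.19, *Mvk* 0.12, *Msmo1* 0.15, *Hsd17b7* 0.16, *Tm7sf2* -0.13, *Npc2* 0.18, *Apoe* 0.12, *Nr1h3* 0.10, *Abca1* 0.021, *Cyp27a1* 0.44, *Pnpla3* 0.12, *Acly* -0.49, *Elovl6* -0.41, *Fasn* -0.62, none of them past the threshold. *Fasn* was at -0.15 with the fatty acid synthesis score and *Ggps1* at 0.017 with library totals. Among the members that turned with the adipocyte score, *Idi1* and *Lss* passed and *Insig1* did not (edgeR adjusted p = 0.0302, 0.0328 and 0.576). Of the 5 members that did not pass in the reported fit, all took both signs over 19 fits, with *Idi1*, *Lss* and *Cyp51* above 0 in 5, 7 and 6, and *Fdft1* and *Mvd* below 0 in 2 each, with the mammary and fatty acid scores. *Hmgcs1* was lower in females in all 19 fits of the sex difference, from -0.93 to -0.26, *Sqle* higher in all but that with the mammary score, and *Insig1* lower in all but that with the adipocyte score. With 1 library per sex and strain, strain, animal and dissection cannot be told apart. The causes of these changes were not tested.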

Other observations

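The recombinant inbred strains can be set beside the inbred strains that founded them, each with 1 library per sex. For *Hmgcs1* the female libraries of C57BL/6J and DBA/2J stood far apart, at 75.1 and 325 TPM, and of 32 BXD females 3 lay below both and 6 above both. In males these founders were close, at 382 and 410 TPM, and 21 of 34 BXD males lay below both and 12 above both. For *Sqle* both founders were high in females, at 20.1 and 19.2 TPM, and 31 of 32 BXD females lay below both. In males, with founders at 11.9 and 10.9 TPM, 26 of 34 BXD libraries lay below both and 4 above both. *Lss* in males gave 32 of 34 BXD libraries below both founders (16.2 and 15.6 TPM), whereas *Fdft1* in males gave 24 of 34 above both (19.3 and 17.98 TPM).

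A/J, a founder of the AXB/BXA strains, had low male values of *Cyp51* (5.92 TPM against 18.1 TPM in C57BL/6J), *Sqle* (5.05 against 11.9 TPM) and *Idi1* (21.7 against 42.02 TPM). By contrast, *Fdft1* in the A/J male stood at 34.1 TPM against 19.3 TPM in C57BL/6J, the highest value of all 74 males. None of 11 AXB/BXA males lay outside the founders' values for *Cyp51* or for *Sqle*, and 1 did for *Idi1*. These founders were the lowest and highest of the 23 inbred males for *Cyp51*, and A/J was the lowest for *Sqle*, so the span between them was wide. In females of the same cross, 7 of 9 lay below both founders for *Sqle*. Each founder value rests on 1 library, and none of these counts was tested.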
